A study of Homo sapiens with 12 samples.

Results

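The miR-199 and miR-214 group comprised 5 mature microRNA (miRNA) names, hsa-miR-199a-5p, hsa-miR-199a-3p, hsa-miR-199b-5p, hsa-miR-214-3p and hsa-miR-214-5p. They were chosen by name and were 5 of the 2656 names counted in the series. Small RNA was sequenced with unique molecular identifiers (UMIs) in 12 libraries of AC16, an established human line made by fusing adult ventricular cells with transformed fibroblasts. The 4 groups of 3 libraries each were exosomes labelled Ang, exosomes labelled Con, whole cells labelled Ang and whole cells labelled Con. The files of the Ang libraries carry AngII in their headers, and no source at hand gives its dose or duration. The design text names hypertrophic cardiomyocytes and asks which miRNAs differ in their exosomes. RNA of whole cells came from the miRNeasy Micro kit and RNA of exosomes from the exoRNeasy Maxi kit, so compartment and kit cannot be told apart. No label says whether replicates were separate cultures, so the p-values speak to sample-to-sample spread alone, which may be technical.

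A miRNA hairpin is cut into a duplex, and either its 5p or its 3p arm can be loaded into an Argonaute protein, which finds target mRNAs mainly through the seed, bases 2 to 8. The miR-199a-2 and miR-214 hairpins are processed from the long non-coding transcript DNM3OS, which mesenchymal cells and fibroblasts use strongly and which increases in fibrotic organs. In mouse hearts, miR-214 restrains the sodium-calcium exchanger and limits calcium overload after ischemia. Also in mouse hearts, miR-199b-5p lowers the kinase Dyrk1a, an inhibitor of NFAT in the calcineurin pathway of hypertrophy. In rat cardiomyocytes, miR-199a-5p represses Hif1a and Sirt1, and miR-199a-3p drives proliferation.

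The mature sequences of 4 of the 5 members matched RefSeq (GRCh38.p14) by name and are shown 5′ to 3′. They are shown because the seeds of the 2 abundant 3p arms differ at bases 5 and 8, and their levels in exosomes and cells are not alike. Capitals mark the seed.
miR-199a-5p: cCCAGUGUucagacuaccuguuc
miR-199a-3p: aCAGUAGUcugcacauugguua
miR-214-3p: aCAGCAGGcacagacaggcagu
miR-214-5p: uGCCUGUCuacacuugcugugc
Counted from the 5′ end, the seed of miR-214-3p differed from that of miR-199a-3p by U5C and U8G. The miR-199a-3p sequence was the same, base for base, as that of miR-199b-3p, which is not a member. The seed CAGUAGU was otherwise held by miR-3129-5p alone among the matched names, and CAGCAGG by miR-761 and miR-3619-5p. No other matched name held the seed of miR-199a-5p or that of miR-214-5p. The member miR-199b-5p had no matched sequence and was not compared, but the MIR199B hairpin holds the bases of the miR-199a-5p seed.

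The hairpins are shown because they place both arms of each on 1 precursor, with the mature arms in capitals.
MIR199A2: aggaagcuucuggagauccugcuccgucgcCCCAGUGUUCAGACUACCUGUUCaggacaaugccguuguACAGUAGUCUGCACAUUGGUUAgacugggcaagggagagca
MIR214: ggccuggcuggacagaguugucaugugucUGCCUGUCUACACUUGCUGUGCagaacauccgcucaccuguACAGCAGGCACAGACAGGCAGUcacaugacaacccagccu
In GENCODE release 29 (GRCh38), MIR214 lay at chr1:172138798-172138907 and MIR199A2 at chr1:172144535-172144644, both on the minus strand and 5627 bases apart. Both lay within DNM3OS on its own strand and, on the opposite strand, within introns of all 5 spanning transcripts of the dynamin gene DNM3. MIR214 was exonic in the 1 DNM3OS transcript that spanned it, and MIR199A2 was exonic in 1 and intronic in 1 of 2. The same 2 mature miR-199a arms also come from MIR199A1 at chr19:10817426-10817496, antisense within introns of DNM2. MIR199B lay at chr9:128244721-128244830, antisense within introns of DNM1. A level of miR-199a-5p therefore sums 2 loci, and the sequence of miR-199a-3p comes from these 2 and from MIR199B.

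Library totals ran from 697049 to 1022550 UMIs in exosomes Ang, from 888518 to 1029883 in exosomes Con, from 413513 to 512840 in cells Ang and from 424041 to 528844 in cells Con. Levels are CPM, counts scaled to the library total, and 3 counts, the upper limit that a count of 0 allows, came to between 2.91 and 7.25 CPM. Among the Con exosome libraries, replicate 1 was unlike the other 2: the chi-square over all names, divided by its degrees of freedom, was 6.57 and 10.6 against them and 1.91 between them. Among the Ang cell libraries, replicate 2 was likewise unlike the others (4.0 and 4.37 against them and 1.99 between them). Beside the members' results, values without these 2 libraries are given where leaving one out turned a sign, changed a call or moved a value by over 1.5 times. Fold changes used TMM scaling, which resets each library by the bulk of its names, and between compartments some directions depend on that scaling. CPM and TMM values are relative to the other names in a library and give no absolute amounts. In bulk libraries, fewer exosomes or cells that carry a miRNA and less of it in each cannot be told apart.

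**Figure D1:**
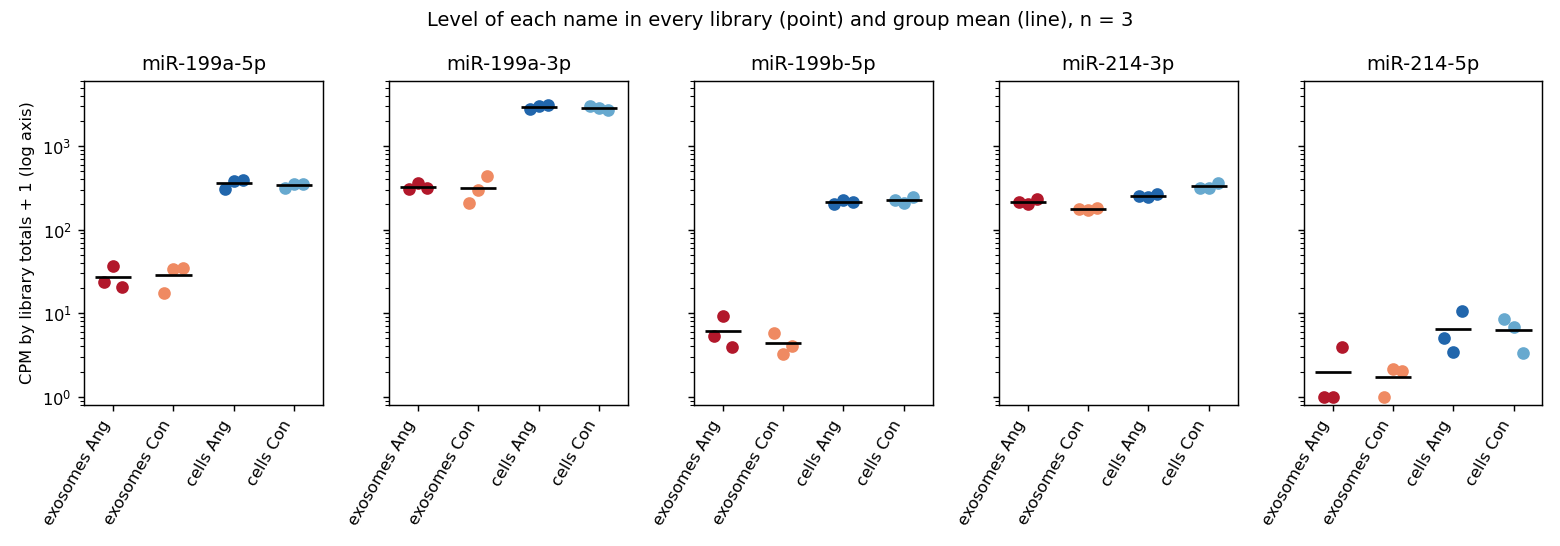
Level of each member in every library, as CPM by library totals plus 1 on a log axis, with points for libraries and a line at the group mean (n = 3). The miR-199 names sit far lower in both exosome groups than in cells, whereas miR-214-3p lies between 168.8 and 360.8 CPM in all 12 libraries.

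miR-199a-3p was the leading member in all 12 libraries, by a wide margin over miR-214-3p in cells and by 1.20 to 2.48 times in exosomes. It held 301.3, 363.4 and 313.9 CPM in exosomes Ang, 209.7, 294.9 and 441.7 CPM in exosomes Con, 2756, 3006 and 3069 CPM in cells Ang, and 3027, 2822 and 2705 CPM in cells Con. The exosome groups overlapped each other, the cell groups overlapped each other, and no exosome library reached a cell library. Its mean ranked 275 among all names in exosomes Ang, 296 in exosomes Con, 68 in cells Ang and 71 in cells Con.

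The other arm, miR-199a-5p, the Hif1a and Sirt1 regulator, was counted less often than miR-199a-3p in every library. Its levels were 23.0, 35.5 and 19.6 CPM in exosomes Ang, 16.5, 32.6 and 34.0 CPM in exosomes Con, 305.8, 379.7 and 390.0 CPM in cells Ang, and 317.7, 348.8 and 351.4 CPM in cells Con. These exosome values rest on 16 to 34 counts a library. Ang and Con overlapped in both compartments.

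The NFAT-pathway miRNA miR-199b-5p stood at 201.8, 222.5 and 210.6 CPM in cells Ang and at 225.0, 205.4 and 247.6 CPM in cells Con. In exosomes it had 3, 8 and 3 counts in Ang and 5, 2 and 3 counts in Con, which places it at the limit of detection there.

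The calcium-handling miRNA miR-214-3p lay within a narrow range of CPM over both compartments. It held 210.9, 202.6 and 234.7 CPM in exosomes Ang, 174.8, 168.8 and 178.1 CPM in exosomes Con, 248.7, 246.7 and 265.2 CPM in cells Ang, and 313.9, 312.0 and 360.8 CPM in cells Con. Every Ang exosome library was above every Con exosome library, and every Ang cell library was below every Con cell library. The rank of its mean among all names was 336 in exosomes Ang, 398 in exosomes Con, 491 in cells Ang and 436 in cells Con.

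The other arm of that hairpin, miR-214-5p, was barely counted. It had 0, 0 and 3 counts in exosomes Ang, 0, 1 and 1 in exosomes Con, 2, 1 and 5 in cells Ang, and 4, 3 and 1 in cells Con. Its group sums of 3, 2, 8 and 8 counts allow no comparison between Ang and Con.

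In exosomes, the comparison of Ang with Con asks which miRNAs differ in vesicles of AngII-labelled cells. Of the 5 members, 3 had enough counts to be tested and 1 passed an adjusted p of 0.05 with edgeR's quasi-likelihood test, whereas 34.0% of all tested names passed and 17.0% passed as higher. miR-214-3p rose 1.39-fold, averaging 216 ± 16.7 CPM in exosomes Ang and 174 ± 4.71 CPM in exosomes Con (SD, n = 3 each). Its log2 change was 0.48 (SE 0.105, adjusted p = 0.00577, 95% interval 0.24 to 0.71). The groups did not overlap in CPM, which was so for 52.4% of all tested names. Without exosomes Con replicate 1 the log2 change was 0.51 (adjusted p = 0.00436). Of 20 draws that thinned every library to 1 total, chosen after seeing the data, 18 kept the call.

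Both tested miR-199a arms missed the threshold in exosomes. miR-199a-3p averaged 326 ± 32.9 CPM in exosomes Ang and 315 ± 117 CPM in exosomes Con, a log2 difference of 0.23 (SE 0.202, adjusted p = 0.439, 95% interval -0.23 to 0.68). The Con libraries spread widely. Leaving out exosomes Con replicate 1 gave 0.02, and leaving out exosomes Con replicate 3 gave 0.52, which passed (adjusted p = 0.0209). miR-199a-5p averaged 26.0 ± 8.40 CPM in exosomes Ang and 27.7 ± 9.72 CPM in exosomes Con, a log2 difference of 0.09 (SE 0.305, adjusted p = 0.854, 95% interval -0.59 to 0.78). Its sign turned to -0.15 without exosomes Con replicate 1 and to -0.07 when library totals replaced TMM.

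In whole cells, the same comparison left 0 of 4 tested members past the threshold with edgeR, against 6.56% of all tested names. At an unadjusted p under 0.05 there was 1, miR-214-3p. With adjusted p-values DESeq2 gave 0 and limma-voom gave 1. miR-214-3p averaged 253.5 ± 10.2 CPM in cells Ang and 329 ± 27.7 CPM in cells Con, a log2 difference of -0.39 (SE 0.114, adjusted p = 0.0548, 95% interval -0.63 to -0.14). The groups did not overlap in CPM, as for 22.4% of all tested names, and the result lay so near the threshold that 6 alternative settings passed it. The adjusted p ran from 0.0595 to 0.192 as each library was left out in turn, so no such fit passed. Without cells Ang replicate 2 the log2 difference was -0.37 (adjusted p = 0.104). Of 20 draws thinned to 1 total, 7 passed by edgeR (adjusted p from 0.0308 to 0.208).

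None of the 3 miR-199 names passed in cells by edgeR or by the 2 other tools. miR-199a-3p averaged 2944 ± 165 CPM in cells Ang and 2851 ± 163 CPM in cells Con, a log2 difference of 0.03 (adjusted p = 0.888, 95% interval -0.12 to 0.18). miR-199a-5p had a log2 difference of 0.07 (SE 0.118, adjusted p = 0.832) and miR-199b-5p one of -0.11 (SE 0.126, adjusted p = 0.724). Without cells Ang replicate 2 these 3 differences were 0.01 for miR-199a-3p, 0.02 for miR-199a-5p and -0.15 for miR-199b-5p, and none passed.

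The fit to all 12 libraries tested whether the change with Ang differed between exosomes and cells. Of 4 tested members, 1 passed as higher in exosomes, against 15.1% of all tested names in either direction and 9.97% in that direction. For miR-214-3p the difference of log2 changes was 1.01 (SE 0.154, adjusted p = 0.000174, 95% interval 0.68 to 1.33), and it passed in every alternative setting run and in 20 of 20 thinned draws. For miR-199a-3p it was 0.33 (SE 0.234, adjusted p = 0.431), for miR-199a-5p 0.17 (SE 0.309, adjusted p = 0.826) and for miR-199b-5p 0.99 (SE 0.486, adjusted p = 0.299). Without exosomes Con replicate 1 the miR-214-3p difference was 0.98 (adjusted p = 0.000379), that of miR-199a-3p was 0.06, that of miR-199b-5p was 1.31 and that of miR-199a-5p turned to -0.14. Without cells Ang replicate 2 the miR-214-3p difference was 0.99 (adjusted p = 0.000486). The miR-199b-5p difference was unsteady, at 0.40 without exosomes Ang replicate 2 and at 3.01 (adjusted p = 0.0527) with counts thinned to 1 total. Without exosomes Con replicate 3, miR-199a-3p passed as well, at 0.64 (adjusted p = 0.0103).

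**Figure D2:**
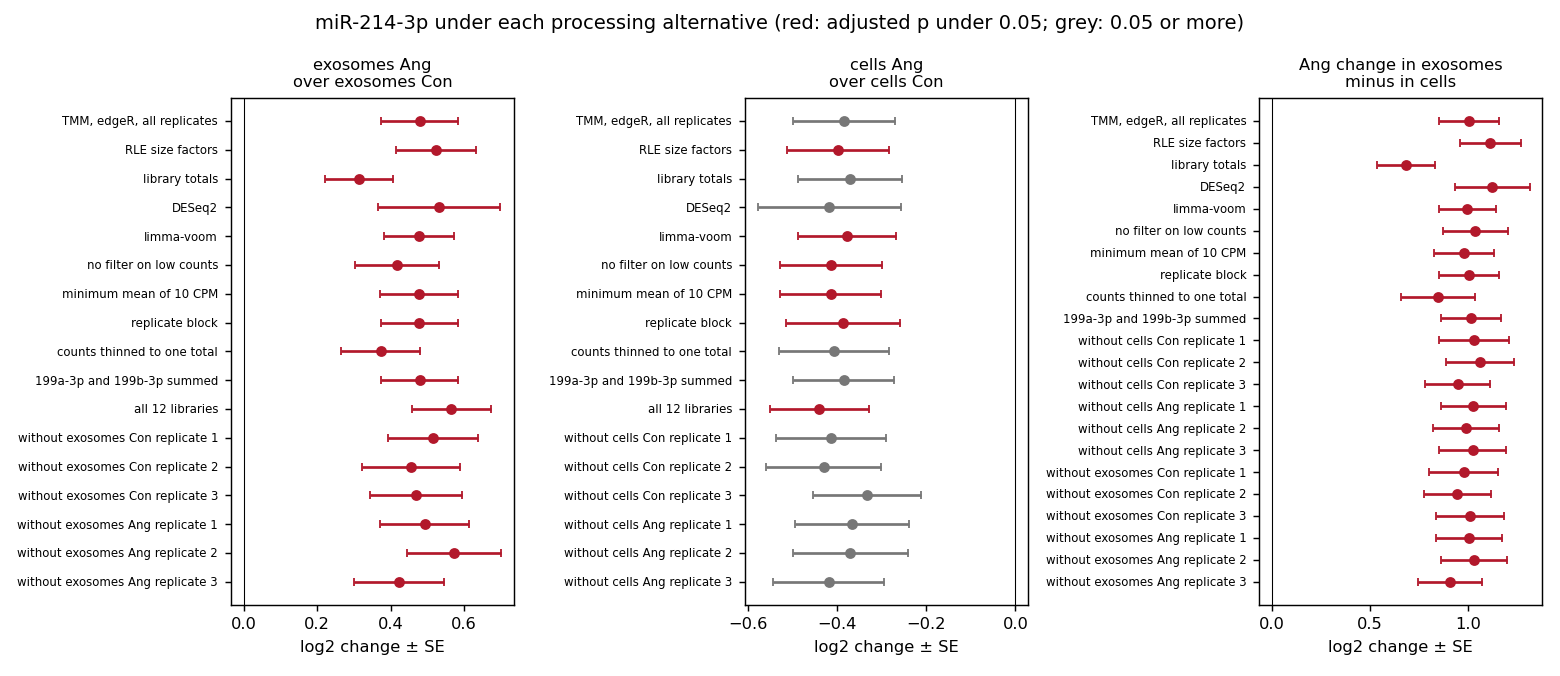
Log2 change of miR-214-3p under each setting (rows) for exosomes Ang against Con, cells Ang against Con and the difference of the 2 changes. Red and grey points mark results past and short of an adjusted p of 0.05. The exosome changes lie from 0.31 to 0.57 and the differences from 0.69 to 1.12, all past the threshold, while the cell result crosses it with the setting.

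Exosomes were then set against the cells of the same label. All 4 tested members passed in both comparisons, 1 as higher and 3 as lower under TMM. The background was high: with Ang, 83.3% of all tested names passed, 38.2% as higher and 45.1% as lower, and with Con, 83.3% passed, 39.2% as higher and 44.2% as lower. In each comparison the CPM of every one of the 4 did not overlap between exosomes and cells, as for 91.0% of tested names in Ang and 89.1% in Con.

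The miR-199 names fell in exosomes. With Ang, the log2 change was -3.43 for miR-199b-5p (SE 0.269, adjusted p = 2.74e-09), -1.89 for miR-199a-5p (SE 0.201, adjusted p = 1.58e-07) and -1.28 for miR-199a-3p (SE 0.0914, adjusted p = 7.24e-10). With Con, it was -4.47 for miR-199b-5p (SE 0.252, adjusted p = 3.25e-08), -2.11 for miR-199a-5p (SE 0.198, adjusted p = 2.4e-06) and -1.66 for miR-199a-3p (SE 0.203, adjusted p = 1.98e-05). Without exosomes Con replicate 1 these Con values were -4.82, -1.83 and -1.43, and all 3 passed. Since miR-199b-5p was near the limit in exosomes, its fitted change rests on few counts there. Its size also depends on the scaling, with log2 changes of -5.29 in Ang and -5.96 in Con by library totals. Its summed counts were 14 in exosomes Ang against 299 in cells Ang, and 10 in exosomes Con against 330 in cells Con. By library totals alone, the ratio of exosomes to cells was thus far below 1: its inverse, cells over exosomes, was 40.4 with Ang (exact 95% interval 23.7 to 74.7) and 64.9 with Con (34.9 to 136.6).

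miR-214-3p took the other direction under TMM. It was 3.16-fold higher in exosomes Ang than in cells Ang (log2 1.66, SE 0.129, adjusted p = 2.25e-09) and 1.51-fold higher in exosomes Con than in cells Con (log2 0.60, SE 0.107, adjusted p = 0.000358). The Con value was again 0.60 without exosomes Con replicate 1. With library totals the log2 values became -0.23 (adjusted p = 0.0828) and -0.91 (adjusted p = 1.11e-05), so its direction depends on the scaling. The same change of scaling moved the median of all tested names to -2.19 in Ang and -1.78 in Con, where it was -0.31 and -0.27 under TMM. Relative to that median, miR-214-3p stood at 1.97 and 1.96 in Ang under TMM and library totals, and at 0.87 and 0.86 in Con. The miR-199 names stayed below the median under both scalings, with miR-199a-3p at -0.97 and -0.98 in Ang and at -1.40 and -1.40 in Con. The Con result of miR-214-3p also passed in 17 of 20 thinned draws and missed the threshold in the remaining 3.

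**Figure D3:**
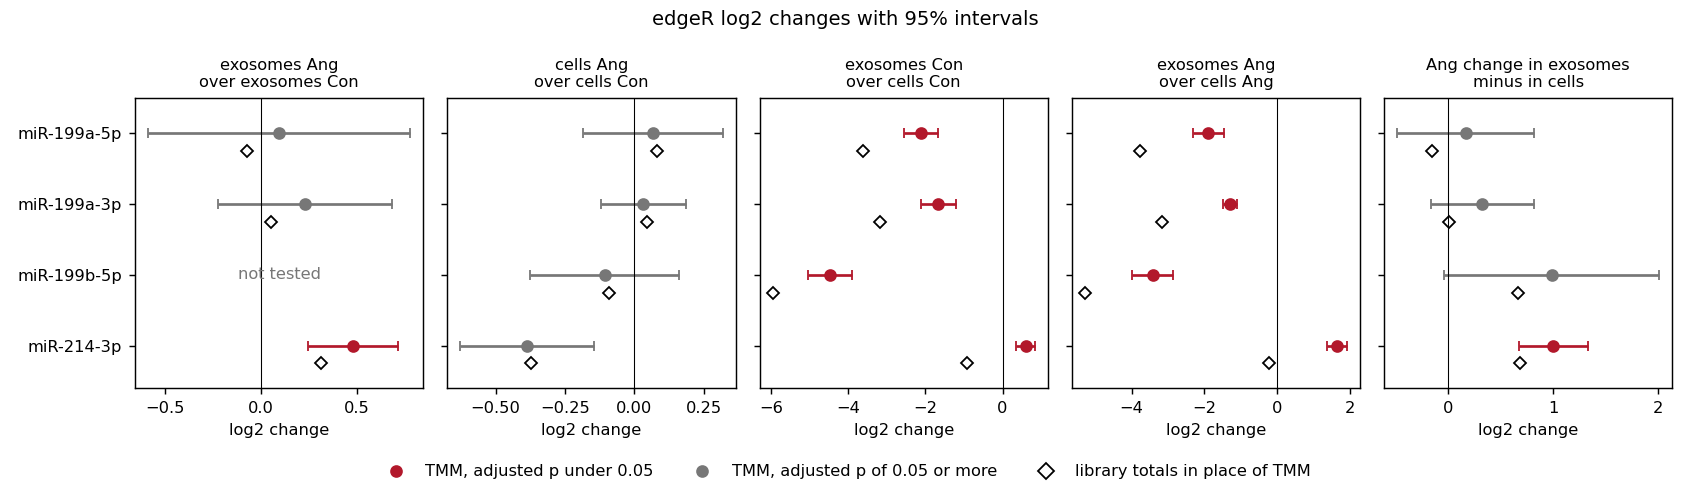
Log2 change of the 4 tested members in each comparison, with 95% intervals; colour marks an adjusted p under 0.05 and diamonds give the value with library totals in place of TMM. The 3 miR-199 names lie left of 0 in both exosome comparisons under either scaling, whereas miR-214-3p crosses 0 when the scaling changes.

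Ratios of 2 members within a library need no scaling. miR-199a-3p over miR-214-3p was 1.43, 1.79 and 1.34 in exosomes Ang, 1.20, 1.75 and 2.48 in exosomes Con, 11.1, 12.2 and 11.6 in cells Ang, and 9.64, 9.04 and 7.50 in cells Con. Every exosome library was below every cell library, and every cells Ang library was above every cells Con library. The mean ratio was 7.67-fold lower in exosomes Ang than in cells Ang and 5.0-fold lower in exosomes Con than in cells Con. It was 1.34-fold higher in cells Ang than in cells Con. Without exosomes Con replicate 1 the log2 difference between exosomes Con and cells Con was -2.06, where it was -2.32 with it. Each of these 3 differences had p = 0.1 by an exact two-sided permutation test, the smallest that 3 against 3 allows, and an adjusted p of 0.229 over 16 ratio comparisons, which does not pass. Between exosomes Ang and exosomes Con the ratio overlapped (log2 difference -0.20, exact permutation p = 0.7, and -0.46 without exosomes Con replicate 1).

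The ratio of the 2 miR-199 5p names was below that of any cell library in every exosome library. miR-199b-5p over miR-199a-5p was 0.188, 0.235 and 0.15 in exosomes Ang, 0.294, 0.0690 and 0.0909 in exosomes Con, 0.66, 0.586 and 0.54 in cells Ang, and 0.708, 0.589 and 0.705 in cells Con. The log2 difference was -1.52 between exosomes Ang and cells Ang and -2.24 between exosomes Con and cells Con, with no overlap and an exact permutation p of 0.1 each. The Con difference was -2.82 without exosomes Con replicate 1. The exosome ratios rest on 2 to 8 counts of miR-199b-5p.

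miR-199a-3p over miR-199a-5p was 13.1, 10.2 and 16.1 in exosomes Ang, 12.7, 9.03 and 13 in exosomes Con, 9.01, 7.92 and 7.87 in cells Ang, and 9.53, 8.09 and 7.70 in cells Con. The groups did not overlap with Ang (log2 difference 0.62, exact permutation p = 0.1) and overlapped with Con (0.42, exact permutation p = 0.2). Over summed counts the 5p arm held 7.38% of miR-199a counts in exosomes Ang, 8.01% in exosomes Con, 10.8% in cells Ang and 10.6% in cells Con. The miR-199a-3p name holds only part of the counts of a sequence shared with miR-199b-3p. This ratio and this share therefore cannot be read as the arm use of miR-199a alone. For miR-214 the 5p arm held 0.514% (exact 95% interval 0.106 to 1.49) in exosomes Ang, 0.396% (0.0480 to 1.42) in exosomes Con, 2.17% (0.943 to 4.24) in cells Ang and 1.64% (0.710 to 3.21) in cells Con. These intervals cover counting error only.

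**Figure D4:**
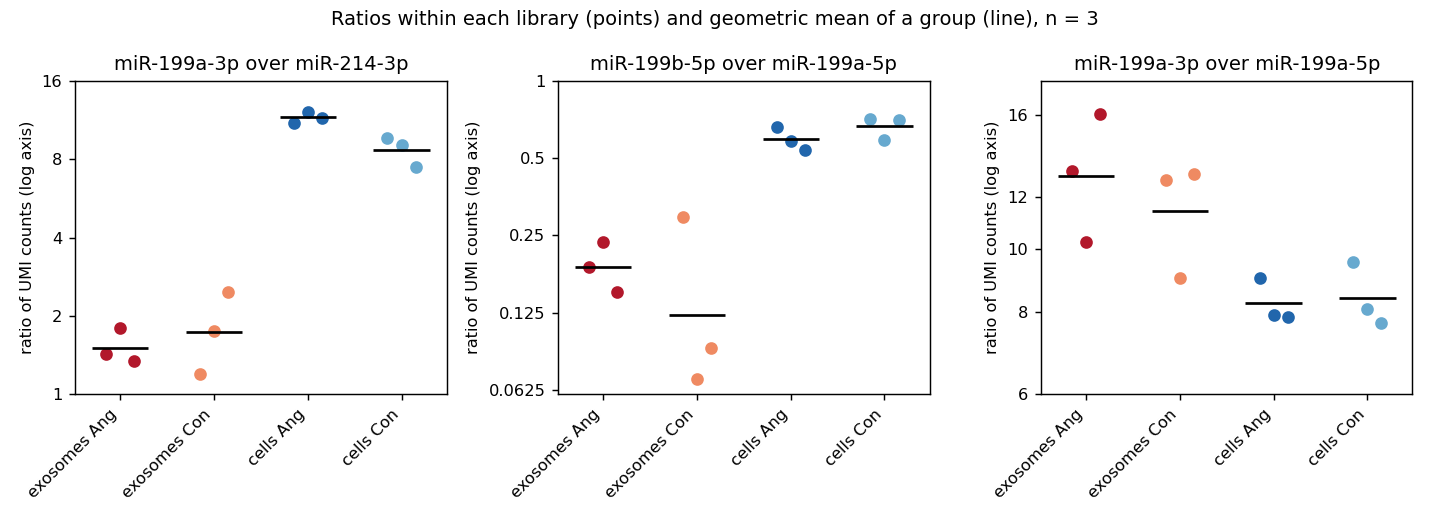
Ratios of the UMI counts of 2 members within each library on a log axis, with points for libraries and a line at the geometric mean of 3. The ratio of miR-199a-3p to miR-214-3p lies from 1.20 to 2.48 in exosomes and from 7.50 to 12.2 in cells.

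As a share of all UMIs, the 5 names together held 0.0575 ± 0.0035% in exosomes Ang, 0.0521 ± 0.0127% in exosomes Con, 0.377 ± 0.0226% in cells Ang and 0.375 ± 0.0123% in cells Con (SD, n = 3 each). The exact two-sided permutation p was 0.6 for exosomes Ang against exosomes Con, 0.9 for cells Ang against cells Con and 0.1, the smallest possible, for exosomes against cells with either label. The difference of exosomes Ang less exosomes Con, 0.0053 percentage points, turned to -0.00043 without exosomes Con replicate 1, and that of cells Ang less cells Con, 0.0022, turned to -0.0020 without cells Ang replicate 2.

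Because miR-199a-3p and miR-199b-3p are 1 sequence, no read can tell them apart, and the files list both. The miR-199a-3p name held between 47.4% and 53.1% of their summed UMIs. The exact 95% interval held 50% in 11 of 12 libraries, the exception being cells Con replicate 2 at 52.1% (50.2 to 54.0). The value of miR-199a-3p is thus close to an even part of the pooled sequence, which stood at 624.1, 766.6 and 610.2 CPM in exosomes Ang, 395.2, 587.5 and 842.2 CPM in exosomes Con, 5676, 6172 and 6097 CPM in cells Ang, and 5892, 5416 and 5507 CPM in cells Con. The Ang and Con groups overlapped in exosomes and in cells.

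**Figure D5:**
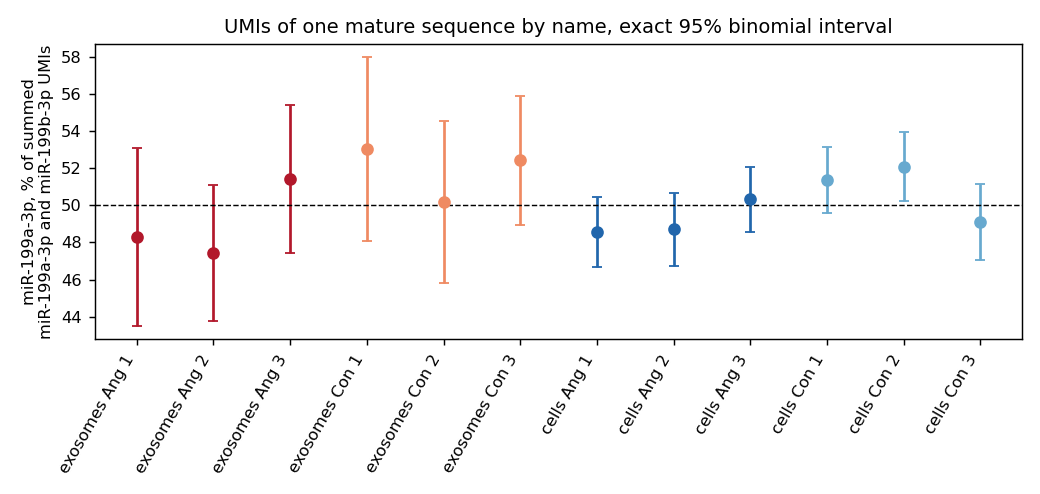
Share of the summed miR-199a-3p and miR-199b-3p UMIs listed as miR-199a-3p in each library, with exact 95% binomial intervals and a dashed line at 50%. In 11 of 12 libraries the interval holds 50%.

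Other names of these loci did not share 1 pattern. miR-3120-5p comes from the strand opposite miR-214 and its sequence overlaps that of miR-214-3p by 18 bases. Its sequence, cCUGUCUGugccugcuguaca, is shown with its seed in capitals because it is the reverse complement of miR-214-3p over that stretch. It fell in exosomes, with a log2 change of -3.75 in Ang (SE 0.494, adjusted p = 2.27e-06) and -2.62 in Con (SE 0.322, adjusted p = 2.11e-05), the direction of the miR-199 names and not of miR-214-3p. It had 1, 1 and 1 counts in exosomes Ang and 4, 2 and 4 in exosomes Con. It was thus near the limit of detection there, and the sizes of these changes rest on those few counts. Within the dynamin genes, miR-3154, on the miR-199b strand in DNM1, changed by -0.48 in exosomes Ang against cells Ang and by -0.80 in exosomes Con against cells Con. miR-638 in a DNM2 intron rose by 0.91 in Ang and 0.58 in Con under TMM, and its CPM was below that of cells in every exosome library. In each Ang against Con comparison, 0 of 4 names tested by edgeR passed, where 34.0% of all names passed in exosomes and 6.56% in cells. DESeq2 and limma-voom also called 0. By edgeR, 0 had an unadjusted p under 0.05. The unadjusted DESeq2 p was 0.0241 for miR-199b-3p in exosomes (log2 0.44) and 0.042 for miR-638 in cells (log2 -0.18).

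Matched names that share a seed with a member were few. miR-3129-5p, with the seed of miR-199a-3p, fell in exosomes against cells, with log2 changes of -3.92 in Ang (adjusted p = 3.11e-06) and -2.90 in Con (adjusted p = 1.57e-05). miR-761, with the seed of miR-214-3p, had -3.18 in Ang (adjusted p = 1.58e-07) and -3.44 in Con (adjusted p = 2.58e-06), opposite in sign to miR-214-3p under TMM. Both names were near the limit in exosomes, so the sizes of these changes rest on few counts. miR-3129-5p had 0, 2 and 1 counts in exosomes Ang and 2, 2 and 6 in exosomes Con. For miR-761 these were 4, 2 and 4 in Ang and 8, 3 and 2 in Con. miR-3619-5p had too few counts to be tested. The letters GGAG, known as a vesicle-sorting motif, stood in 15.7% of matched mature sequences and CCCU in 11.9%, on the mature strand, and neither stood in any of the 4 matched members.

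The names whose profiles over 12 libraries lay nearest were taken among 1820 names by the root mean square difference of centred log2 CPM. For miR-199a-3p they were miR-199b-3p (0.101, r = 0.993), miR-25-3p (0.144, r = 0.983) and miR-143-3p (0.149, r = 0.985). For miR-214-3p they were miR-6893-5p (0.136, r = 0.977), miR-4470 (0.140, r = 0.989) and miR-637 (0.144, r = 0.974). These correlations are descriptions, and the libraries share compartment and depth.

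Other miRNAs of the processes in which the group is known were read from the same fits. Of 16 names described as promoting hypertrophy, 10 were tested in exosomes Ang against Con, where miR-27b-3p rose (log2 0.59, adjusted p = 0.00846) and miR-212-3p fell (-1.12, adjusted p = 0.00553), and the median was 0.21 against -0.05 over all names. Of all tested names, 34.0% passed in that comparison, 17.0% as higher and 17.0% as lower. With limma-voom both miR-27b-3p and miR-212-3p passed. With DESeq2 miR-27b-3p passed and miR-212-3p had no adjusted p. Both passed again without exosomes Con replicate 1, and the list's median was then 0.03. In cells, miR-208a-3p, the miRNA of the alpha myosin gene, fell (-0.47, adjusted p = 0.0447) among 14 tested, with a median of 0.03 against 0.02. Of all tested names, 6.56% passed in cells. The miR-208a-3p call also held with limma-voom, and it ended with DESeq2 (adjusted p = 0.0745) and without cells Ang replicate 2 (adjusted p = 0.095). In exosomes against cells, 13 of 14 fell and 0 rose with Ang (median -1.76 against -0.31), and 12 fell and 1 rose with Con (-2.04 against -0.27). Of 14 fibrosis names, 13 were tested in each Ang against Con comparison and 0 passed with edgeR, DESeq2 or limma-voom. By edgeR, 34.0% of all tested names passed in exosomes and 6.56% in cells. Of the fibrosis names, 1 in exosomes and 3 in cells had an unadjusted p under 0.05 by edgeR. miR-101-3p was not among these by edgeR (unadjusted p = 0.124 in exosomes and 0.759 in cells). By edgeR without exosomes Con replicate 1, it passed as lower in exosomes Ang (log2 -1.04, adjusted p = 0.0138). In exosomes against cells, 12 of 13 fell with Ang and 12 of 14 with Con, with medians of -2.20 and -2.26. Beside both lists, 45.1% of all tested names passed as lower with Ang and 44.2% with Con. miR-214-3p under TMM stood against the direction of most of both lists, which is a description of lists chosen with these results known.

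Markers of cell types were read as summed CPM. Of 6 mesenchymal names, 0 passed with edgeR, DESeq2 or limma-voom in either Ang against Con comparison. At an unadjusted p under 0.05 there were 1 in exosomes and 0 in cells. By edgeR, 34.0% of all tested names passed in exosomes Ang against Con and 6.56% in cells. In exosomes against cells, 5 of 6 fell with each label, where 45.1% of all tested names passed as lower with Ang and 44.2% with Con. Their sum was 2030, 2345 and 1761 CPM in exosomes Ang and 1516, 2375 and 2948 CPM in exosomes Con, lowest and highest in the Con replicates that were also lowest and highest for miR-199a-3p. The same Con replicates were lowest and highest for the sums of every other list except the epithelial one. This order was therefore not particular to mesenchymal names. The 7 striated muscle names summed to between 57.4 and 71.4 CPM in exosomes Ang, 73.8 and 90.6 in exosomes Con, 285.4 and 325.6 in cells Ang, and 344.3 and 376.3 in cells Con. Much of these sums was miR-208a-3p, with 47.0 to 55.9 CPM in exosomes Ang, 58.3 to 68.0 in exosomes Con, 152.4 to 177.4 in cells Ang and 202.3 to 251.9 in cells Con. In exosomes it was the only muscle name tested, with a log2 difference of -0.08 (adjusted p = 0.722).

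The 7 blood cell names summed to 346, 643 and 476 CPM in exosomes Ang, 552, 1194 and 1279 in exosomes Con, 2041, 6895 and 2172 in cells Ang, and 2262, 2374 and 2134 in cells Con. In exosomes, 3 of 5 tested fell with Ang by edgeR, where 17.0% of all names passed as lower. Of the 5, 1 passed with DESeq2, 0 with limma-voom and 4 by edgeR without exosomes Con replicate 1. In cells 0 of 4 passed with edgeR (3 at an unadjusted p under 0.05) or limma-voom, and DESeq2, which gave 2 of them an adjusted p, called 0. The 3 liver names summed to 47.3, 70.0 and 48.9 CPM in exosomes Ang against 35.9, 160.9 and 185.3 in exosomes Con, with miR-885-5p higher and miR-122-5p lower in Ang by edgeR. DESeq2 called only miR-122-5p of the list and limma-voom only miR-885-5p. The 2 endothelial names summed to 84.6, 232.9 and 96.8 CPM in exosomes Ang, 130.1, 434.4 and 472.6 in exosomes Con, 523.9, 4665 and 516.7 in cells Ang and 574.8, 594.9 and 674.5 in cells Con. Of these, miR-126-3p rose in cells Ang (log2 2.46, adjusted p = 0.0443), with 301.7, 4007 and 317.8 CPM there against 274.2, 279.1 and 280.6 CPM in cells Con. That call rested on cells Ang replicate 2, without which the log2 difference was 0.14 (adjusted p = 0.644), while miR-126-5p then passed as lower (-0.69, adjusted p = 0.00474). It did not pass with limma-voom (adjusted p = 0.321), and DESeq2 gave it no p. In exosomes 0 of 2 passed with edgeR, DESeq2 or limma-voom, with 1 at an unadjusted p under 0.05 by edgeR. Both passed as lower in Ang by edgeR without exosomes Con replicate 1. The 6 epithelial names summed to between 180.7 and 198.0 CPM in exosomes Ang and between 203.7 and 232.7 in exosomes Con, with 1 name at 0 in exosomes Ang, and 0 of 2 tested passed there by any of the 3 tools, 0 of them at an unadjusted p under 0.05. Beside these lists, 34.0% of all tested names passed by edgeR in exosomes Ang against Con and 6.56% in cells. The part of these markers in the results of the miR-199 and miR-214 names was not tested.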

How the data were processed

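The deposited values are UMI counts per mature miRNA name, whole numbers with no normalization by the authors, per the file headers. The submitters' processing notes list cutadapt and GRCh38. Which aligner and counter made the counts is not given in the sources used here. Names listed only for cells (76) were taken as 0 in exosomes.

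CPM was computed from library totals. Each comparison was fitted to its 6 libraries, and the interaction to all 12, with edgeR 4.0.16 (filterByExpr, TMM, quasi-likelihood, Benjamini-Hochberg over all tested names, threshold 0.05), after tests on simulated data. Alternatives were RLE factors, library totals, DESeq2 1.42.0, limma-voom 3.58.1, other filters, a replicate block, thinned counts, all 12 libraries and leaving out each library. Ratios had 0.5 added to each count for the exact permutation tests. All 5 members are named, with the 3 nearest profiles (mean of at least 10 CPM, prior count 2) of miR-199a-3p and miR-214-3p. Names took their sequences from RefSeq (2367 of 2656 matched). List counts by other tools and without 2 libraries were added after seeing the data. Members and lists were chosen with earlier results of these data known.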

Additional observations from a re-analysis of the deposited data

Results flagged for a closer look

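miR-214-3p changed differently with Ang in the 2 compartments. The difference of its log2 changes, exosomes less cells, was 1.01 by edgeR (SE 0.154, adjusted p = 0.000174), with a log2 change of 0.48 in exosomes and of -0.39, short of the threshold, in cells. It was higher in 3 of 3 exosome Ang libraries and lower in 3 of 3 cell Ang libraries than in any Con library of the same compartment. Ang and Con did not overlap for 52.4% of all tested names in exosomes and 22.4% in cells. The difference of changes passed for 15.1% of all tested names, and for 9.97% as higher in exosomes. No member met the test for a sample far from the others, which groups of 3 do not allow.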

How the results depend on the processing

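With library totals, miR-214-3p reversed to -0.91 in exosomes Con against cells Con and to -0.23 in exosomes Ang against cells Ang, and with counts thinned once the first was 0.27 (adjusted p = 0.0617). Around 0, signs turned for miR-199a-5p in exosomes (-0.071 with library totals, -0.17 to 0.30 leaving out 1 library), in cells (-0.0010 to 0.17) and in the interaction (-0.15 with library totals, -0.00072 thinned, -0.16 to 0.34 leaving out 1 library), and for miR-199a-3p in cells (-0.0019 with DESeq2, -0.025 with all 12 libraries, -0.021 to 0.082 leaving out 1 library). The count of members past the threshold ran from 1 to 2 in exosomes and in the interaction leaving out 1 library. In cells it was 1 in place of 0 with RLE factors, limma-voom, no filter, a minimum of 10 CPM, all 12 libraries and the replicate block. Libraries of the same replicate number had correlations of -0.156 to 0.244 between compared groups. With 3 libraries in a group, this cannot decide whether the samples were paired. The replicate block moved no other count of members. Without the 10 leading names in the total, the differences in share were 0.0178, -0.371 and -0.357 percentage points for exosomes Ang against exosomes Con, exosomes Con against cells Con and exosomes Ang against cells Ang. The causes were not tested. Counts under 10 limit miR-199b-5p in exosomes and miR-214-5p throughout.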
